A study of Homo sapiens with 9 samples.

Results

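Lactoferrin-binding surface molecules are described here as 9 genes of 58884 listed per library. They were chosen by name, as reported lactoferrin receptors and carriers of heparan sulfate: LRP1, its chaperone LRPAP1, nucleolin (NCL), the syndecans SDC1, SDC2, SDC3 and SDC4, the glypican GPC1, and TLR4. Of the 9, 8 passed the filter on low values and were tested, and TLR4 did not pass.

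The cells were HK-2, a line of human proximal tubule epithelium immortalised with papillomavirus oncogenes, so all 9 libraries come from 1 established line grown in serum-free keratinocyte medium with pituitary extract and EGF. The 3 groups of 3 libraries were control cells, cells given fine particulate matter (PM2.5) and cells given lactoferrin and then PM2.5. The labels call control cells untreated, while the protocol text speaks of a vehicle. Labels for the PM2.5 group give 24 h of exposure, while the pretreated cells had lactoferrin for 6 h and then particles for 18 h, so time in PM2.5 differed between these groups. The stated particle dose was 1 mg/ml and the stated lactoferrin dose 40 mg/ml, in units that could not be checked here. No group received lactoferrin without PM2.5. Separate cultures are not named in the labels, so p-values measure only how far these samples spread, and that spread may be technical.

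Lactoferrin is a strongly basic iron-binding protein of secretions, and it reaches cells in several ways. LRP1 is a large endocytic receptor of the LDL receptor family that takes up protease-inhibitor complexes, lipoprotein remnants and lactoferrin, and LRPAP1 (receptor-associated protein) keeps ligands off such receptors while they fold. Nucleolin is an abundant nucleolar protein of ribosome biogenesis, part of which is found at the cell surface. Syndecans span the membrane and glypicans are held by a lipid anchor, and the sulfated chains on both bind basic proteins such as lactoferrin. TLR4, with MD-2 (LY96) and CD14, is the receptor for bacterial lipopolysaccharide, and lactoferrin is reported to bind parts of that complex.

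The deposited values were FPKM, read numbers scaled to gene length and library size. The length that fitted most low values was that of all annotated exons of a gene, which can exceed the transcript present. Levels and shares set side by side between genes are therefore approximate. They corresponded to between 15314483 and 18816308 reads assigned to genes per library. Differences are log2 fold changes of FPKM + 0.5 after scaling, with standard errors (SE), from limma. A gene was called when its Benjamini-Hochberg adjusted p over 14454 tested genes was under 0.05. Values in parentheses after a mean are SD over 3 libraries. Lactoferrin replicate 1 was the lowest of its group for LRP1, SDC3, SDC1 and GPC1, and control replicate 3 was the highest control for NCL and the lowest for SDC4. Over all tested genes the median absolute log2 distance from the other 2 libraries of the group was 0.23 for lactoferrin replicate 1, 0.19 for control replicate 3 and also 0.19 for lactoferrin replicate 3. Libraries also differed with exon length, by the median log2 difference from the other 2 libraries for genes with over 8 kb of exon. It was -0.17 and 0.17 in lactoferrin replicates 1 and 3, and -0.15 and 0.15 in control replicates 1 and 3. In the PM2.5 libraries it lay between -0.07 and 0.05. Where a member's call rests on lactoferrin replicate 1 or control replicate 3, it is given with and without it.

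In control cells nucleolin and SDC4 had the highest transcript levels of the 9 genes, with mean FPKM of 161 and 134, and their ranges overlapped. SDC2 (69.7), SDC1 (40.8), SDC3 (19.9) and LRP1 (11.6) followed, each without overlap with its neighbour. GPC1 (8.31) and LRPAP1 (7.87) overlapped, and TLR4 was lowest at 0.126 FPKM. With PM2.5 the order of mean FPKM became NCL, SDC4, SDC1, SDC2, GPC1, SDC3, LRP1, LRPAP1 and TLR4, with no overlap between neighbours. SDC1 and SDC2 had thus exchanged places, and GPC1 had moved from seventh to above SDC3 and LRP1. With lactoferrin and PM2.5 the order was alike, except that SDC2 overlapped GPC1, and LRPAP1 (7.56) and LRP1 (5.96) overlapped.

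**Figure D1:**
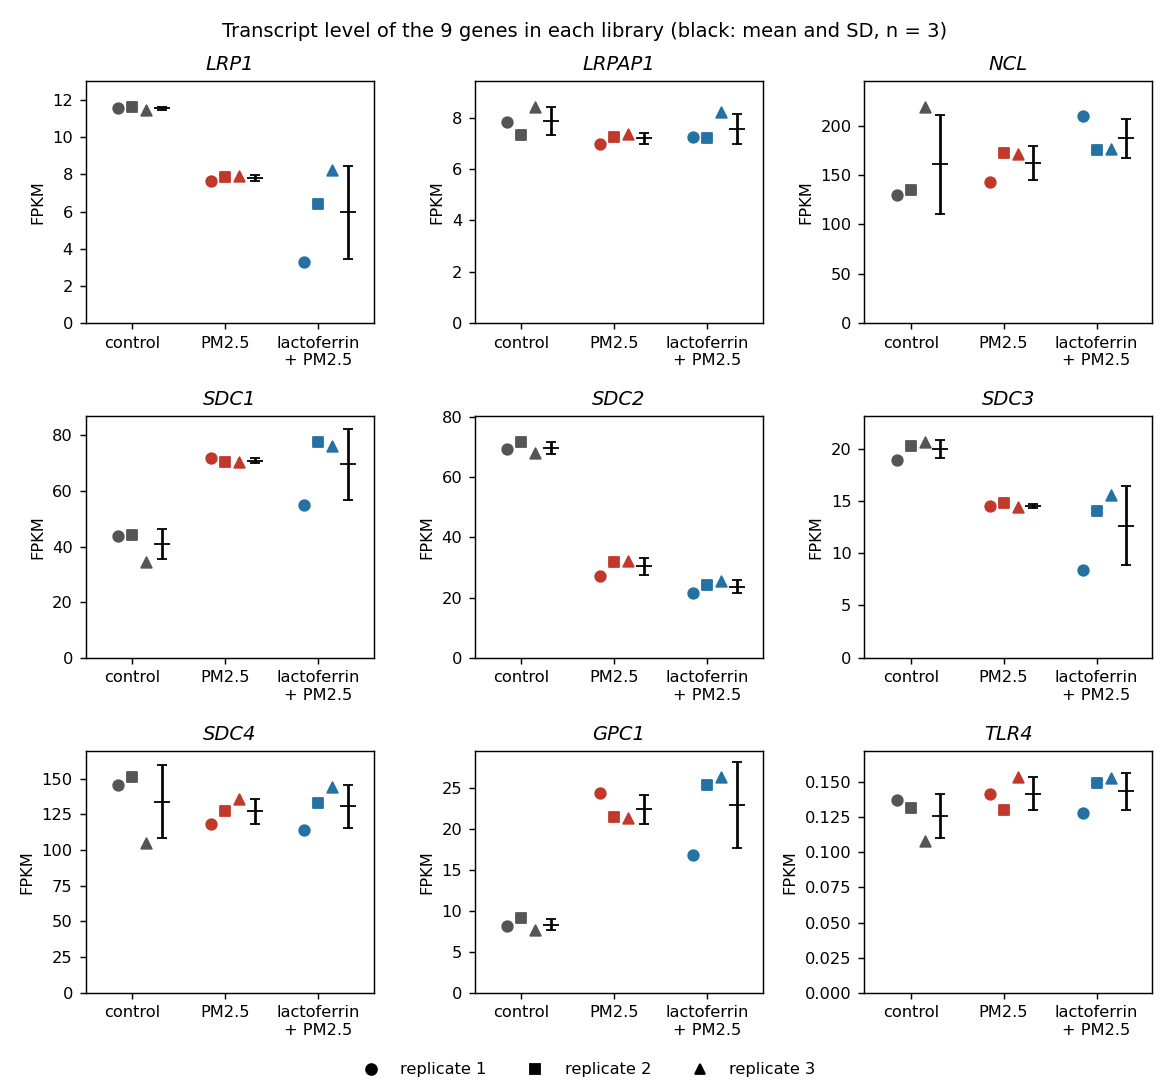
FPKM (vertical axis of each panel, starting at 0) of the 9 genes in every library, by group on the horizontal axis, with marker shape giving the replicate number and black bars the mean and SD of 3 libraries. SDC1 and GPC1 lie higher and SDC2 lower in all 6 exposed libraries than in the 3 controls, and lactoferrin replicate 1 lies below its group for LRP1, SDC3, SDC1 and GPC1.

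The comparison of PM2.5 with control cells asks how particulate exposure changed these transcripts. SDC1 and GPC1 rose and SDC2 fell. No other member passed the test, although LRP1 and SDC3 were lower in 3 of 3 exposed libraries without overlap with the controls. The called genes were thus 3 of 8 tested members, where 35.0% of all tested genes were called, and the 2 called higher and 1 called lower compare with 18.5% and 16.5% of all genes. For 5 of the 8 members the PM2.5 and control groups did not overlap in FPKM, as for 53.6% of tested genes. In this fit of all 9 libraries the members' share lies near the background. Leaving out lactoferrin replicate 1 and control replicate 3 together, 7 of 8 members were called, 3 higher and 4 lower, where 5904 of 14010 tested genes were. In RNA from whole dishes, fewer cells carrying a transcript and less of it per cell cannot be told apart.

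SDC2 (ENSG00000169439, GRCh38 chromosome 8, 96493351 to 96611780, plus strand), a syndecan of mesenchymal and many epithelial cells that organises matrix at the surface, had 69.5, 71.7 and 68.0 FPKM in control replicates 1 to 3. With PM2.5 it had 27.1, 31.7 and 32.3 FPKM. The exposed libraries all lay far under the lowest control. Its log2 fold change was -1.24 ± 0.09 (SE; limma adjusted p = 1.1e-05), a ratio of mean FPKM of 0.435.

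GPC1 (glypican 1, ENSG00000063660, GRCh38 chromosome 2, 240435671 to 240468078, plus strand) is a lipid-anchored proteoglycan that binds growth factors through its heparan sulfate. It had 8.18, 9.07 and 7.66 FPKM in control cells and 24.4, 21.5 and 21.3 FPKM with PM2.5. The groups were well apart, with a log2 fold change of 1.33 ± 0.15 (SE; limma adjusted p = 0.000221) and a ratio of means of 2.69. This was the largest increase among the 8 tested members.

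SDC1 (syndecan 1, ENSG00000115884, GRCh38 chromosome 2, 20200797 to 20225433, minus strand), the main syndecan of epithelia, had 43.8, 44.0 and 34.5 FPKM in control cells. In the PM2.5 libraries it had 71.9, 70.4 and 70.4 FPKM. The 3 exposed values lay close together and above every control. The log2 fold change was 0.75 ± 0.13 (SE; limma adjusted p = 0.00208), and the ratio of means was 1.74.

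SDC4 (ENSG00000124145, GRCh38 chromosome 20, 45325288 to 45348424, minus strand), a syndecan of focal adhesions, was the most abundant proteoglycan transcript of the set and was not called. Control libraries had 146, 151 and 105 FPKM and PM2.5 libraries 118, 127 and 136 FPKM. The low control was replicate 3, and the groups overlapped. The log2 fold change was -0.11 with a 95% interval from -0.40 to 0.18 (limma adjusted p = 0.539). Without control replicate 3 and lactoferrin replicate 1 together it was -0.26 and called (limma adjusted p = 0.0199).

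SDC3 (ENSG00000162512, GRCh38 chromosome 1, 30869467 to 30908761, minus strand), best known from the nervous system, had 18.9, 20.2 and 20.6 FPKM in control cells and 14.5, 14.8 and 14.4 FPKM with PM2.5. Every exposed library lay under every control. The log2 fold change of -0.49 ± 0.18 (SE) missed the threshold (limma adjusted p = 0.0613). That SE is shared with the lactoferrin group, whose SDC3 values were widely spread: without lactoferrin replicate 1 the fold change was -0.49 and called (limma adjusted p = 0.00153). Fitted on the 6 libraries of these groups alone it was also called (limma adjusted p = 0.00305).

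**Figure D2:**
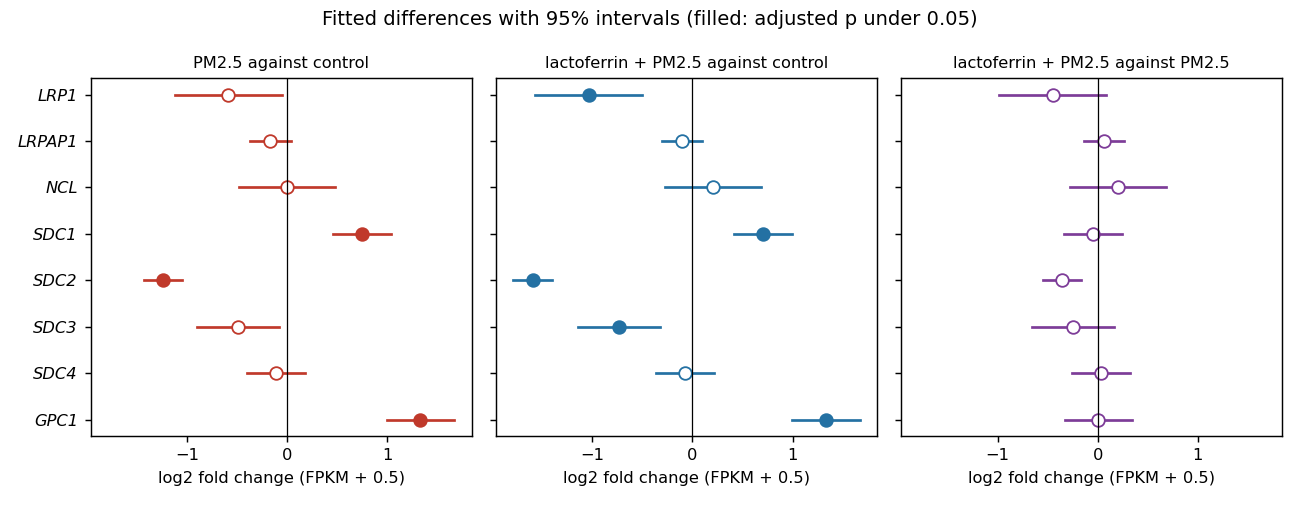
Log2 fold change of FPKM + 0.5 (horizontal axis) with its 95% interval for the 8 tested genes (vertical axis) in the 3 comparisons, 1 panel each, filled where the adjusted p was under 0.05. SDC1 (0.75 and 0.70) and GPC1 (1.33 and 1.33) lie right of 0 and SDC2 (-1.24 and -1.60) left of 0 against control, and no symbol is filled for lactoferrin and PM2.5 against PM2.5.

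The make-up of the heparan sulfate carriers among the members differed between groups, while the summed level of these members overlapped. The FPKM of the 4 syndecans and GPC1 added up to 273 (SD 32.6) in control cells, 265 (SD 9.07) with PM2.5 and 259 (SD 38.5) with lactoferrin and PM2.5. SDC2 made up 25.8% (SD 2.66) of that sum in control cells and 11.4% (SD 0.736) with PM2.5. SDC1 went from 14.9% (SD 0.336) to 26.7% (SD 1.20) and GPC1 from 3.06% (SD 0.197) to 8.45% (SD 0.931). SDC3 went from 7.40% (SD 1.18) to 5.48% (SD 0.209). For each of these 4 genes the shares of the 3 libraries of a group did not overlap those of the other group. SDC4 had shares of 48.8% (SD 3.76) and 47.9% (SD 1.67), in overlapping groups. The ratio of SDC1 to SDC2 in FPKM was 0.630, 0.613 and 0.508 in the control libraries and 2.65, 2.22 and 2.18 in the PM2.5 libraries. An exact two-sided permutation test of 3 against 3 libraries cannot give a p under 0.1, so the shares are given without one. The 11 other listed heparan sulfate proteoglycans are outside these sums and shares. They added up to 162 to 178 FPKM in control, 157 to 159 with PM2.5 and 89.7 to 157 with lactoferrin and PM2.5.

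**Figure D3:**
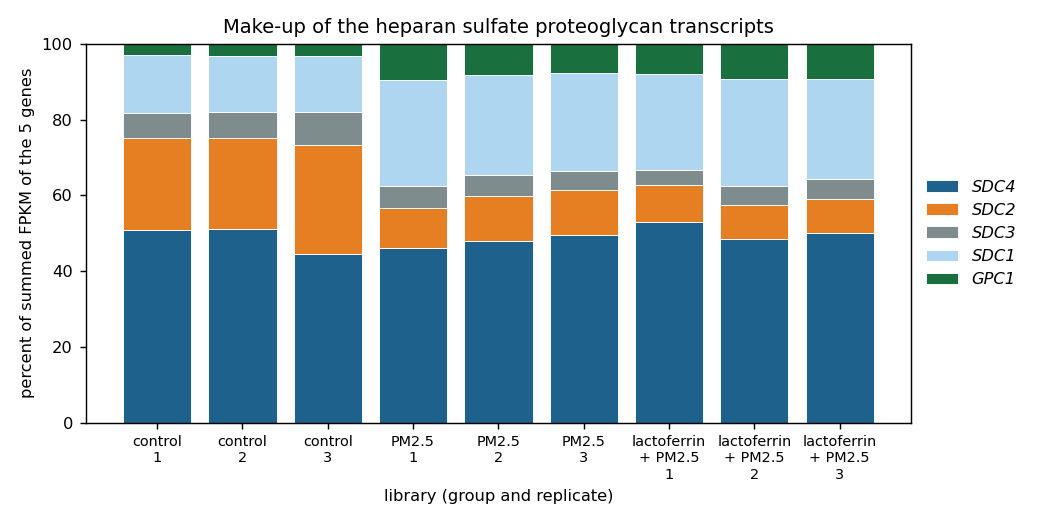
Share of each of the 5 proteoglycan genes in their summed FPKM (vertical axis, percent) in each of the 9 libraries (horizontal axis). SDC2 takes between 24.2% and 28.9% in control libraries and between 10.6% and 11.9% with PM2.5, while SDC4 takes between 44.5% and 53.0% in all 9.

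Promoter sequence is shown for SDC1 and GPC1, the members called higher, and for SDC4, which was not called. Windows before RefSeq (GRCh38.p14) starts were taken for 8 of the 9 genes, and SDC2 was left out of this search. Each sequence below is the 250 bases before a RefSeq start, 5′ to 3′ on the gene's strand, with no base in a GENCODE v29 exon. They lie at chr2:20225476-20225725 (minus strand) for SDC1, the more upstream of its starts, chr2:240435413-240435662 (plus strand) for GPC1 and chr20:45348425-45348674 (minus strand) for SDC4. Capitals mark GC boxes (GGGCGG on either strand), the core of the site read by Sp1-type factors.
SDC1: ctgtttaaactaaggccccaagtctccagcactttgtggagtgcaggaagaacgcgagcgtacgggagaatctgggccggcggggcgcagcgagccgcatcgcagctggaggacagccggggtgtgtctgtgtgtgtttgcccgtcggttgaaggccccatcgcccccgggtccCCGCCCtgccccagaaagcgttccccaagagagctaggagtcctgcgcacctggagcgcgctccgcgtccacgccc
GPC1: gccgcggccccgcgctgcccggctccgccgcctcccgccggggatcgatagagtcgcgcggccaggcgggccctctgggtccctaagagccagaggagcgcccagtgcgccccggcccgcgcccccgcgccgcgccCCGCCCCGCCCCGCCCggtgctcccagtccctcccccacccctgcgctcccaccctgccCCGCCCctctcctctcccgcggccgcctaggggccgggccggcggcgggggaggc
SDC4: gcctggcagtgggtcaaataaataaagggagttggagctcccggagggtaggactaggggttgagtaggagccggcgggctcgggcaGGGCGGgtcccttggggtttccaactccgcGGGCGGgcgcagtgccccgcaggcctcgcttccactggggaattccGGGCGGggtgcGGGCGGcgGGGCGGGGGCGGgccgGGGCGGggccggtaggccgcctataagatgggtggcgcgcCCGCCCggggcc

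The SDC1 window held 1 GC box, the GPC1 window 4 and the SDC4 window 8, counting overlapping matches. Of 35116 such windows outside chromosome 8, 42.64% held at least 1. Adjoining GPC1 boxes share a base. The GC content of these windows was 66.4%, 84.0% and 73.6%. None of the 3 held an AP-1 site (TGANTCA, in 6.57% of windows), the antioxidant response element core (TGACNNNGC, 10.91%), an E-box (CACGTG, 6.34%) or a TATA box (TATAAA, 10.72%), both strands being searched. A match or its absence describes only the letters of this window.

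For PM2.5 against control, 18.5% of all tested genes were called higher and 16.5% lower, the background for each list count in that comparison. Among the 9 tested enzymes that build the linker and backbone of heparan sulfate, 4 rose and 1 fell with PM2.5 (median log2 fold change 0.28, against 4e-04 over all tested genes). The 1 that fell was EXT1, a subunit of the chain polymerase, at 29.4, 31.3 and 33.3 FPKM in control and 13.0, 14.2 and 15.5 FPKM with PM2.5 (log2 fold change -1.17 ± 0.11 SE). B3GAT3, which adds the last sugar of the linker, went from 7.70, 7.60 and 4.83 FPKM to 19.5, 15.1 and 18.0 FPKM (1.29 ± 0.16 SE). B3GALT6, which adds the galactose before it, rose by 0.55 ± 0.09 on the log2 scale. EXT1 and these linker genes moved in opposite directions, with all PM2.5 libraries outside the control range for these 3 genes.

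Of 25 genes that sulfate, epimerise or cut the chains or supply sulfate, 13 were tested and 12 stayed under 1 FPKM in every library. With PM2.5 3 rose and 7 fell (median -0.25). HS3ST3A1 and HS3ST3B1, which add the rare 3-O-sulfate, rose by 0.82 ± 0.11 and 0.79 ± 0.13 (SE), the former from 9.56 (SD 1.08) to 17.8 (SD 1.06) FPKM. PAPSS2, which makes the sulfate donor, fell by 0.49 ± 0.07 on the log2 scale, from 27.3 (SD 1.81) to 19.9 (SD 1.11) FPKM. NDST1, which starts sulfation of the chain, and HS6ST1, a 6-O-sulfotransferase, also fell (-0.67 ± 0.20 and -0.59 ± 0.11, SE), both named after their values were seen.

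**Figure D4:**
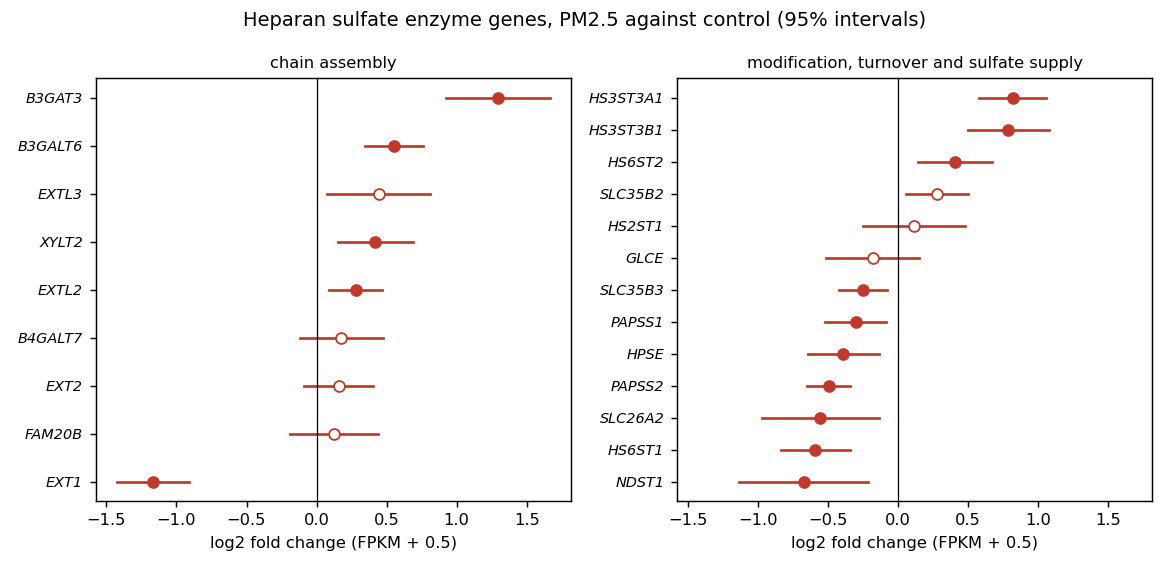
Log2 fold change of FPKM + 0.5, PM2.5 against control (horizontal axis), with 95% intervals for the tested enzymes of heparan sulfate assembly (left) and modification (right), filled where the adjusted p was under 0.05. EXT1 (-1.17) lies apart from the other assembly genes, and the 2 filled genes furthest right in the modification panel are HS3ST3A1 (0.82) and HS3ST3B1 (0.79).

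Other heparan sulfate proteoglycans changed both ways: of 9 tested, 2 rose and 2 fell (median -0.24). CD44, which carries heparan sulfate in some splice forms, rose by 0.90 ± 0.10 (SE) and TGFBR3, a co-receptor for TGF-beta, by 0.64 ± 0.14. GPC4, another glypican, went the opposite way from GPC1, from 12.9 (SD 1.52) to 6.59 (SD 0.160) FPKM (-0.96 ± 0.15 SE). GPC6, named after its values were seen, had 7.80 (SD 0.393) and 8.21 (SD 0.224) FPKM and was not called. Of 6 tested genes for shedding proteases, 2 rose and 2 fell. The listed gene for an inhibitor of these proteases was at 0 FPKM in every library and was not tested. MMP14, a membrane protease that cuts SDC1, rose from 38.9 (SD 0.913) to 96.3 (SD 3.95) FPKM, while MMP7 fell from 41.6 (SD 6.05) to 26.9 (SD 1.66) FPKM. Among 10 genes whose proteins bind syndecan tails 2 rose and 3 fell, with PRKCA at 0.50 ± 0.10 and EZR, a linker to actin, at -0.67 ± 0.12 (SE).

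LRP1 (ENSG00000123384, GRCh38 chromosome 12, 57128493 to 57213351, plus strand) was nearly constant within the first 2 groups. It had 11.6, 11.6 and 11.5 FPKM in control libraries, 7.64, 7.89 and 7.91 FPKM with PM2.5, and 3.26, 6.38 and 8.23 FPKM with lactoferrin and PM2.5. The PM2.5 group lay under the control group without overlap, and the lactoferrin libraries were spread on both sides of the PM2.5 values. The log2 fold change for PM2.5 against control was -0.59 ± 0.24 (SE) and missed the threshold (limma adjusted p = 0.0823), with a 95% interval from -1.12 to -0.05.

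The spread of the lactoferrin group enters that SE. Without lactoferrin replicate 1 the fold change of LRP1 was the same to 2 decimals, -0.59, and was called (limma adjusted p = 0.00135). It was also called without lactoferrin replicate 3 (limma adjusted p = 0.0348) and on the 6 libraries of these groups alone (limma adjusted p = 0.000665). With LRP1 and SDC3 the count without lactoferrin replicate 1 was 5 of 8 members, where 5858 of 14325 tested genes were called. LRP1 has 20839 bases of exon, the longest of the 9. It shares exon sequence with STAT6 and LRP1-AS on the opposite strand, and with the strand setting of the counting not given in the sources used here, reads of these genes cannot be told apart.

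LRPAP1 (ENSG00000163956, GRCh38 chromosome 4, 3503597 to 3532559, minus strand) had 7.85, 7.33 and 8.42 FPKM in control cells and 6.97, 7.27 and 7.35 FPKM with PM2.5. The groups overlapped narrowly, and the log2 fold change of -0.17 ± 0.09 (SE) was not called (limma adjusted p = 0.178). The ratio of LRP1 to its chaperone in FPKM was 1.48, 1.59 and 1.36 in the control libraries. It was 1.10, 1.09 and 1.08 with PM2.5, under every control, and 0.451, 0.884 and 1.00 with lactoferrin and PM2.5.

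Relatives of LRP1 rose or were not called, and LRP1 itself was not called in this fit. Of 9 tested members of the LDL receptor family besides LRP1, 4 rose with PM2.5 and 0 fell (median 0.45), and 7 had positive estimates. LRP6, named after its values were seen, was not called. Its PM2.5 libraries (4.68, 6.02 and 6.06 FPKM) nevertheless lay under all its controls (6.27, 7.22 and 7.68 FPKM), as for LRP1. LRP8, a receptor for reelin and selenoprotein P, went from 2.43 (SD 0.188) to 7.32 (SD 0.107) FPKM, and LRP12 from 10.1 (SD 0.257) to 22.0 (SD 1.36) FPKM. LRP5, a Wnt co-receptor, rose by 0.52 ± 0.12 (SE). Of 8 maturation and adaptor genes of LRP1, 2 rose and 2 fell, with the adaptor genes SHC1 at 0.48 ± 0.08 and DAB2 at -0.46 ± 0.11 and the chaperone gene MESD at -0.39 ± 0.10 (SE).

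Among 15 tested genes for proteins that LRP1 clears, 7 rose and 3 fell (median 0.39). PLAU, urokinase, rose from 33.4 (SD 1.48) to 101 (SD 3.02) FPKM, and SERPINE2, an inhibitor of urokinase and thrombin, from 12.6 (SD 0.547) to 32.3 (SD 0.993) FPKM. THBS1, thrombospondin 1, fell from 28.3, 30.2 and 35.2 FPKM in control libraries to 2.64, 3.61 and 3.94 FPKM with PM2.5, a log2 fold change of -3.09 ± 0.19 (SE).

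NCL (nucleolin, ENSG00000115053, GRCh38 chromosome 2, 231453531 to 231483641, minus strand) had 130, 135 and 219 FPKM in control libraries and 143, 173 and 172 FPKM with PM2.5. Control replicate 3 was the highest of the 9 libraries and the other controls were the lowest. The log2 fold change was -0.0031 with a 95% interval from -0.48 to 0.48 (limma adjusted p = 0.992). Without control replicate 3 it was 0.26 (limma adjusted p = 0.151), and without that library and lactoferrin replicate 1 it was 0.26 and called (limma adjusted p = 0.0464). NCL hosts the small nucleolar RNA genes SNORD82, SNORA75 and SNORD20 in its introns.

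Of 17 tested nucleolar genes of ribosome biogenesis, 8 rose and 1 fell with PM2.5 (median 0.19). POLR1B, a subunit of RNA polymerase I, rose from 7.49 (SD 0.395) to 12.6 (SD 0.0192) FPKM, and WDR12 and TCOF1 by 0.47 ± 0.09 and 0.52 ± 0.09 (SE). The 1 that fell, named after its values were seen, was NOP58, a core protein of box C/D particles, at 17.4, 18.1 and 26.8 FPKM in control and 7.56, 9.05 and 10.9 FPKM with PM2.5. NOP58, like NCL, was highest in replicate 3 among the controls.

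TLR4 (ENSG00000136869, GRCh38 chromosome 9, 117704175 to 117724730, plus strand) was close to the limit of detection. It had 0.138, 0.132 and 0.108 FPKM in control, 0.142, 0.130 and 0.154 FPKM with PM2.5, and 0.128, 0.149 and 0.153 FPKM with lactoferrin and PM2.5. These values stand for between 25 and 36 assigned reads per library over 13272 bases of exon. TLR4 shares exon sequence with another protein-coding gene on the same strand, which was listed at 0 FPKM in every library. How reads on the shared exons were assigned is unknown, and the TLR4 level may be an undercount. The 3 groups overlapped, and no difference was detectable at this depth. Of the 9 other Toll-like receptor genes 6 stayed under 1 FPKM in every library, and of the 3 tested 0 were called with PM2.5 (limma; 0 also at an unadjusted p under 0.05; summed FPKM of all 9 between 2.97 and 4.94 over the libraries).

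The genes around TLR4 were better expressed. Of 17 tested co-receptors, adaptors, kinases and inhibitors, 6 rose and 1 fell with PM2.5 (median 0.03). IRAK2, a kinase of the receptor complex, rose from 3.50 (SD 0.237) to 11.5 (SD 0.605) FPKM, IRAK1 from 58.5 (SD 8.60) to 95.3 (SD 6.55) FPKM, and TNFAIP3, an inhibitor of NF-kB signalling, from 3.41 (SD 0.433) to 6.73 (SD 0.459) FPKM. These kinases and the inhibitor serve other receptors too. LY96, which encodes the MD-2 partner of TLR4, had 0.538, 1.19 and 0.567 FPKM in control and 2.39, 1.84 and 1.216 FPKM with PM2.5 (0.84 ± 0.28 SE, limma adjusted p = 0.0431). CD14 was low throughout, between 0.258 and 1.39 FPKM, and was not called.

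Other molecules reported to bind lactoferrin were mostly at or near 0. ITLN1, ASGR1, ASGR2, CD209, CXCR4 and LRP2 stayed under 1 FPKM in every library, the highest value among them being 0.249 FPKM (ASGR1). GAPDH, a glycolytic enzyme also reported at the surface, lay between 1045 and 1890 FPKM and was not called with PM2.5 (-0.11 ± 0.18 SE). LTF, the cells' own lactoferrin gene, was listed at 0 in 8 libraries and at 0.0262 FPKM in PM2.5 replicate 2.

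The comparison of lactoferrin and PM2.5 with PM2.5 alone asks what the pretreatment changed in exposed cells, with the difference in time noted above. None of the 8 tested members was called (limma), where 0.0484% of all tested genes were called, 0.0208% higher and 0.0277% lower. The limma-voom fit of rebuilt reads also called 0 members, and a fit with library weights called 1, SDC2 (adjusted p = 0.00673). At an unadjusted p under 0.05 there was 1 member, SDC2, and 1765 of all genes. The groups did not overlap for 2 of the 8, SDC2 and NCL, and for 21.1% of tested genes.

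SDC2 had 21.4, 24.0 and 25.5 FPKM with lactoferrin and PM2.5, each under the lowest PM2.5 library (27.1 FPKM). Its log2 fold change was -0.36 ± 0.09 (SE; limma unadjusted p = 0.00232, adjusted p = 0.265). The direction was thus the same as that of PM2.5 against control, and the groups were separated by a gap of less than their own ranges. NCL had 210, 176 and 176 FPKM against 143, 173 and 172 FPKM, a log2 change of 0.21 with a 95% interval from -0.27 to 0.69 (limma adjusted p = 0.659).

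For SDC1 the lactoferrin libraries had 54.8, 77.7 and 76.1 FPKM, on both sides of the PM2.5 group, and the log2 fold change was -0.05 with a 95% interval from -0.33 to 0.24. GPC1 had 16.8, 25.4 and 26.4 FPKM (0.0059, interval -0.33 to 0.34). SDC4 had 114, 133 and 144 FPKM (0.03, interval -0.26 to 0.32). Replicate 1 was the lowest of its group for these 3 genes. SDC3 had 8.35, 14.0 and 15.5 FPKM and a log2 fold change of -0.24 (interval -0.65 to 0.16), which was 0.0041 without replicate 1. LRPAP1 had 7.24, 7.22 and 8.23 FPKM (0.06, interval -0.14 to 0.27).

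LRP1 had the most negative estimate, -0.45 ± 0.24 (SE; limma adjusted p = 0.444), and it rested largely on replicate 1: without that library it was -0.115. Lactoferrin replicate 1 lay 1.00 below the mean of replicates 2 and 3 for LRP1 on the log2 scale, where the median of 26 genes of like exon length and GC content lay 0.43 below. For SDC3 the values were -0.74 and -0.17, for GPC1 -0.56 and -0.22, and for SDC1 -0.44 and -0.02. NCL lay on the other side, at 0.30, where like genes had a median of -0.09. With each library's trend on exon length and GC content removed, an alternative chosen after seeing the data, the log2 fold change for lactoferrin and PM2.5 against PM2.5 was -0.25 for LRP1 and -0.15 for SDC3, and neither was called.

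**Figure D5:**
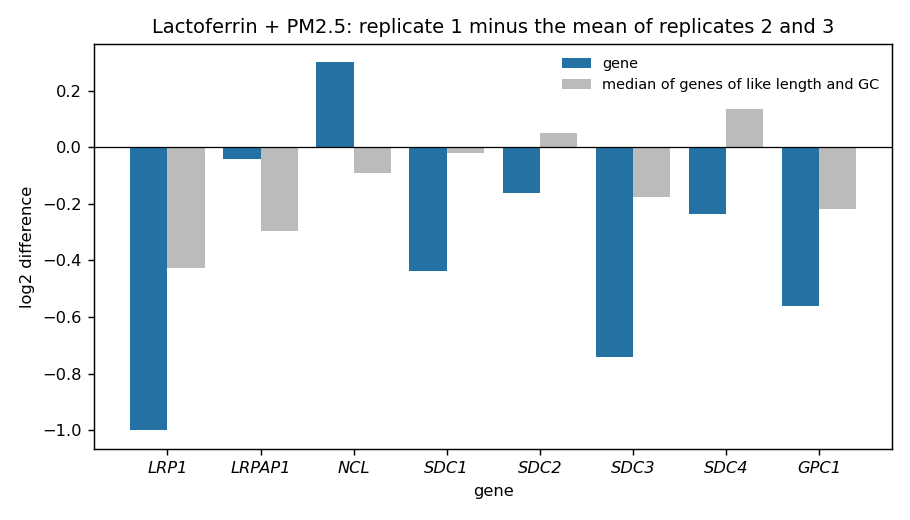
Log2 level in lactoferrin and PM2.5 replicate 1 minus the mean of replicates 2 and 3 (vertical axis) for the 8 tested genes (horizontal axis, blue bars), with the median of genes of like exon length and GC content (grey bars). LRP1 (-1.0) and SDC3 (-0.74) lie furthest below 0, and below the medians of like genes (-0.43 and -0.17).

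In this comparison 0 of the 130 tested genes in the lists around the members were called (limma), where 7 of all 14454 were. An unadjusted p under 0.05 (limma) was found for 32 of the 130 and for 1765 of the 14454. The lists were chosen with earlier results of these data known. The median log2 fold change was -0.23 over 9 tested LDL receptor relatives and -0.31 over 9 other heparan sulfate proteoglycans. Without lactoferrin replicate 1 these medians were -0.06 and -0.13. HSPG2, perlecan, had 17.5, 18.4 and 18.5 FPKM with PM2.5 and 5.47, 12.1 and 13.5 FPKM with lactoferrin and PM2.5, with replicate 1 again lowest. LY96 had 5.34, 2.98 and 3.04 FPKM, above the PM2.5 group without overlap, at a log2 fold change of 0.87 ± 0.28 (SE; limma adjusted p = 0.347).

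The comparison of lactoferrin and PM2.5 with control shares its controls with the comparison of PM2.5 with control. It called 5 of the 8 tested members, 2 higher and 3 lower, where 38.2% of all tested genes were called, 19.6% higher and 18.5% lower. The groups did not overlap for 5 of 8 members and 47.5% of all tested genes. GPC1 rose by 1.33 ± 0.15 (SE; limma adjusted p = 0.000165) and SDC1 by 0.70 ± 0.13 (limma adjusted p = 0.00246). SDC2 fell from 69.7 (SD 1.90) to 23.6 (SD 2.09) FPKM, with a log2 change of -1.60 ± 0.09 (SE; limma adjusted p = 2e-06).

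LRP1 went from 11.6 (SD 0.0871) to 5.96 (SD 2.51) FPKM, with a log2 change of -1.04 ± 0.24 (SE; limma adjusted p = 0.00788), and SDC3 from 19.9 (SD 0.885) to 12.6 (SD 3.78) FPKM, with a log2 change of -0.73 ± 0.18 (SE; limma adjusted p = 0.0112). Both calls were made without lactoferrin replicate 1 too, at smaller sizes of -0.70 and -0.49. LRPAP1 (-0.10 ± 0.09) and SDC4 (-0.08 ± 0.13) were not called. NCL was not called either (0.20 ± 0.21 SE), but without control replicate 3 its log2 fold change was 0.47 (limma adjusted p = 0.0219).

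For lactoferrin and PM2.5 against control, 19.6% of all tested genes were called higher and 18.5% lower. In the lists, heparan sulfate chain assembly had 2 of 9 genes higher and 1 lower, again B3GAT3 (1.65 ± 0.16 SE), B3GALT6 (0.29 ± 0.09) and EXT1 (-1.48 ± 0.11). Chain modification had 3 of 13 higher and 5 lower, with PAPSS2 at -0.57 ± 0.07 and HS3ST3A1 at 0.74 ± 0.11 (SE). Other proteoglycans had 2 of 9 higher and 4 lower, with HSPG2 at -1.82 ± 0.25 (SE). The LDL receptor family had 3 of 9 higher and 1 lower, which was VLDLR (-0.43 ± 0.12 SE), and LRP1 ligands 7 of 15 higher and 5 lower. The TLR4 pathway list had 4 of 17 higher and 2 lower, with LY96 at 1.72 ± 0.28 (SE). Among syndecan tail partners 1 of 10 rose and 2 fell. The 1 that rose was SDCBP, syntenin, from 38.6 (SD 4.17) to 68.5 (SD 5.62) FPKM. With PM2.5 alone SDCBP was already above every control, at 56.7, 53.7 and 52.8 FPKM.

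Across the 9 libraries the log2 levels of LRP1 and SDC3 had a Pearson correlation of 0.99, those of SDC1 and GPC1 a value of 0.98, and those of SDC2 and GPC1 a value of -0.93. All 9 points share the 3 groups and lactoferrin replicate 1, so these values describe the set and carry no test. Among all tested genes with a symbol, the patterns most like that of SDC2 were those of TUFT1 and THBS1 (Pearson r of 0.998 each over 9 libraries). For SDC1 they were SLC1A5 (0.993) and SLC4A2 (0.992), and for GPC1 TMEM201 and RDH10 (0.995 each).

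Markers were read as a check on the label of the cells. Of 10 proximal tubule markers 9 stayed under 1 FPKM in every library, among them AQP1 (at most 0.139), CUBN (0.0319) and LRP2 (0.0142), the last also a reported lactoferrin receptor, so the transport markers of the labelled cell type were absent or nearly so. Of 9 renal epithelial markers 7 were expressed, with PAX8 at 52.2 (SD 1.91) FPKM in control. Immune markers were mostly at or near 0: 8 of 9 stayed under 1 FPKM, PTPRC at most at 0.0116. The exception, CSF1R, lay between 0.57 and 1.28 FPKM. It was called higher for lactoferrin and PM2.5 against control (log2 fold change 0.497). The list summed to between 0.714 and 1.46 FPKM over the libraries. Of 10 fibroblast and endothelial markers 7 stayed under 1 FPKM. The list's sum was 48.1 to 54.4 FPKM in control, 66.2 to 68.1 with PM2.5 and 50.8 to 55.1 with lactoferrin and PM2.5, most of it LUM. Of the 3 tested genes of that list, LUM and DCN rose with PM2.5, while COL1A1 fell from 6.16, 6.19 and 7.98 FPKM to 1.34, 1.41 and 1.51 FPKM (-1.96 ± 0.14 SE). The part of these markers in the results was not tested.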

How the data were processed

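The authors deposited FPKM, 1 file per sample; the unit was inferred from the values. Per the submitters' processing notes, which give no order or settings, the tools were HISAT2 2.1.0, Trimmomatic 0.38, DESeq2 1.22.1 and featureCounts 1.6.0, on GRCh38. Annotation and strand setting: not given in the sources used here. With GENCODE v29 exon lengths (58611 of 58884 identifiers matched), 86.0% to 87.2% of low values per library (at most 200 reads) were whole reads within 0.05, which gave the depth. FPKM were divided by trimmed mean of M values factors (0.930 to 1.03), and log2(FPKM + 0.5) was fitted with limma 3.58.1 under R 4.3.3, as 3 group means over all 9 libraries with eBayes (trend, robust), two-sided, for genes with at least 0.5 FPKM in at least 3 libraries. The pseudocount understates changes of low genes. The script was tested on simulated libraries. Members and gene lists were chosen with earlier results of these data known. Named genes are the 9 members, the 3 called genes of smallest adjusted p per list and comparison (not all are printed), the 2 genes most correlated with each member called for PM2.5 against control, and untested receptor and marker genes with their highest value. Alternatives were other pseudocounts, filters and scalings, limma-voom on rebuilt reads, a replicate block, a fit on 2 groups, and libraries left out; removal of a length and GC trend and library weights were added after seeing the data. Figures were drawn with matplotlib 3.10.9.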

Additional observations from a re-analysis of the deposited data

How the results depend on the processing

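Without each library in turn, members called for PM2.5 against control ranged from 3 to 5, for lactoferrin and PM2.5 against control from 5 to 6, and for lactoferrin and PM2.5 against PM2.5 from 0 to 0, with 0 to 10 of all genes called in the last. Ranges of log2 fold changes that changed sign were -0.16 to 0.26 for NCL in PM2.5 against control. In lactoferrin and PM2.5 against PM2.5 they were -0.13 to 0.10 for SDC1, -0.40 to 0.0041 for SDC3, -0.0303 to 0.11 for SDC4 and -0.10 to 0.19 for GPC1, and against control -0.22 to 0.0029 for SDC4. None of these changes of sign passed the test. SDC1, SDC2 and GPC1 kept their direction and their call in both comparisons with control under all 21 alternatives.

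Members called for PM2.5 against control were 3, with 5062 of 14454 genes. They were 5 on the 6 libraries compared (5496 of 13874 genes), 5 with a length and GC trend removed (5836 of 14436), 6 with library weights (7733 of 14454) and 7 leaving out the pair of control replicate 3 and lactoferrin replicate 1 (5904 of 14010). Library weights called 1 member and 2034 genes for lactoferrin and PM2.5 against PM2.5, against 0 and 7; the cause was not tested. The count of 7 was 16 with limma-voom, 4 on the 6 libraries compared, 11 without the pair of libraries and 24 with the trend removed. NCL (-0.0031 in PM2.5 against control) was 0.022 without a filter on low values, 0.0479 without scaling, 0.0080 with limma-voom, 0.0015 on 6 libraries, 0.26 without the pair and 0.24 with weights. For lactoferrin and PM2.5 against PM2.5, GPC1 was -0.0156 with upper-quartile scaling and SDC4 -0.0279 with the trend removed. SDC1 was 0.11 without the pair and 0.11 with weights, and SDC3 0.0089 without the pair. LRPAP1 against control was 0.0409 with the trend removed. The trend and the weights were chosen after seeing the data.

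Whether replicate numbers pair the libraries was not settled. Same-numbered libraries of PM2.5 and control had residual correlations of 0.18, -0.06 and 0.06, and differently numbered ones lay between -0.18 and 0.14. For lactoferrin and PM2.5 and control the same-numbered values were 0.1145, 0.0829 and 0.0718, and the others lay between -0.1477 and 0.0733. Between lactoferrin and PM2.5 and PM2.5 alone the same-numbered values were 0.0878, -0.0683 and 0.0964, and the others lay between -0.1605 and 0.0818. With a replicate block SDC3 was called for PM2.5 against control (limma adjusted p = 0.0374). The block called 5677 of all genes in that comparison, against 5062 without it. For lactoferrin and PM2.5 against PM2.5 it called 13, against 7. A low read number limits TLR4 alone among the 9 genes, with at most 36 reads in a library.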
